A study of Mus musculus with 6 samples.

Results

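Neuropeptides, the proteins that package and cut their precursors, and the receptors that read them were followed across 6 arrays of cultured mouse brain cells. The list names 56 genes, and the endocannabinoid receptor Cnr1 is counted among its receptors. Each was matched by symbol to the transcript clusters that carry a single gene symbol, and 54 of 56 were found among 19938 such genes. They were 26 peptide precursors, 6 granins and processing enzymes and 22 receptors. The precursor Calca and the convertase Pcsk2 were not analysed here. Vipr1 had several rows, and the brighter one was used.

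The study asked which genes the hormonally active form of vitamin D, 1,25-dihydroxyvitamin D3 (1,25D), induces in neurons and glia. Cells from the brains of OF1 mouse embryos at embryonic day 17 were grown into mixed neuron-glial cultures with fetal calf serum, then moved to serum-free medium. 3 arrays came from cultures given vehicle (control) and 3 from cultures given 1,25D at 10 nM, each called a biological replicate. The labels give neither the treatment time nor whether a culture held 1 embryo or several, so the errors below measure the spread between these 6 samples. The median log2 intensity over genes was 7.91 to 7.98 on the 6 arrays. Markers of astrocytes were bright, 7 of 8 above the upper quartile of genes (9.28 on the log2 scale). Of the general neuron markers, 5 of 8 lay above the median of genes (7.95), as did 4 of 8 markers of GABA neurons. None of the 5 measured markers of glutamate neurons lay above that median, and 3 of them lay below the lower quartile (6.78), as did 4 of 8 microglial markers. The arrays carry no call of presence, so none of these genes can be said to be absent.

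Neuropeptides are made as longer precursors, sorted with granins into dense-core vesicles, and cut by prohormone convertases and trimmed by carboxypeptidase E before release. They act mostly through G protein-coupled receptors, so a culture's response depends on which precursor, enzyme and receptor genes its cells express. In the brain the classical peptides mark subtypes of inhibitory and hypothalamic neurons, whereas some members, such as angiotensinogen, are products of astrocytes.

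Several members are textbook targets of cAMP signalling through the cAMP response element, and the deposited values can be read beside those sequences. RefSeq promoters (GRCm38.p6) were found for 48 of the 56 genes. The full element TGACGTCA, whose letters read the same on both strands, lay within the 250 bases before a start in 6 of these 48 genes (12.5%), against 1.77% of the 27025 genes in that table. It was in 6 of 57 member promoters, against 1.55% of all 32851 promoters of that length. Its core TGACG, which the full element contains, lay on either strand in 23 of 48 members (47.9%), against 19.8% of all genes. A direct repeat of the kind that the vitamin D receptor binds was also searched, on both strands, as 2 copies in the same direction with 3 bases between, each copy being AGGTCA or else AGTTCA or else GGTTCA or else GGGTCA. It was in 0 of 48 members and in 0.0444% of all genes, which says only that these letters were not in this window.

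The stretches that hold the full element are shown because they group a peptide, a granin, a convertase and a receptor by a shared sequence. They read 5' to 3' on the gene's strand, with the element in capitals. Chgb is given over the whole 250 bases, since it had the largest difference of all members, and the others over 48 bases.
Chgb (chr2:132781392-132781641, plus strand): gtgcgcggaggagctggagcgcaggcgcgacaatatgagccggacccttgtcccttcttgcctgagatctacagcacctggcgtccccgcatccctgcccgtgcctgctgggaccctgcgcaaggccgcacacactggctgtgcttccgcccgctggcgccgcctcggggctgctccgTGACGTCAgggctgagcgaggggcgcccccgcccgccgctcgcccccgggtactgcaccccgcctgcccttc
Scg2 (chr1:79440067-79440114, minus strand): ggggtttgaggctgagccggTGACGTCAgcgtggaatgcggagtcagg
Pcsk1 (chr13:75089759-75089806, plus strand): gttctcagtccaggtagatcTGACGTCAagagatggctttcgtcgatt
Sst (chr16:23890865-23890912, minus strand): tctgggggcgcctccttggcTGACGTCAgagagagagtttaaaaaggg
Cartpt (chr13:99900768-99900815, minus strand): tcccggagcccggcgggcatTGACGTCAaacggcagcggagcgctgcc
Sstr2 (chr11:113619249-113619296, plus strand): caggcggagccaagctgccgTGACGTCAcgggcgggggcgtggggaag
The element began 72 bases before the start in Chgb, 68 in Scg2, 78 in Pcsk1, 48 in Sst, 112 in Cartpt and 58 in Sstr2. The 6 genes did not share a direction in the treated cultures: the log2 difference, 1,25D minus control, was 0.54 for Chgb, 0.17 for Cartpt, 0.15 for Scg2, 0.02 for Pcsk1, -0.09 for Sstr2 and -0.10 for Sst.

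The members covered a wide span of brightness, from carboxypeptidase E to neurotensin. Brightness also depends on the probes of each gene, so the order below ranks probe sets and not amounts of RNA. The median control mean was 7.10 for peptide precursors, 7.84 for granins and enzymes and 7.40 for receptors, against 7.95 over all genes. Only 11 of 54 members lay above the median of genes and 5 above the upper quartile. Those 5 were Cpe, Adcyap1r1, Npr3, Agt and Nppc. At the dim end 18 members lay below the lower quartile, namely 10 precursors (Adcyap1, Cck, Nmu, Pmch, Vip, Gal, Tac2, Crh, Tac1 and Nts), the convertase Pcsk1 and 7 receptors (Sstr1, Oprm1, Tacr3, Npy5r, Galr1, Npy2r and Oprk1). Differences of such dim genes are compressed, and theirs lay between -0.10 and 0.17 on the log2 scale.

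**Figure D1:**
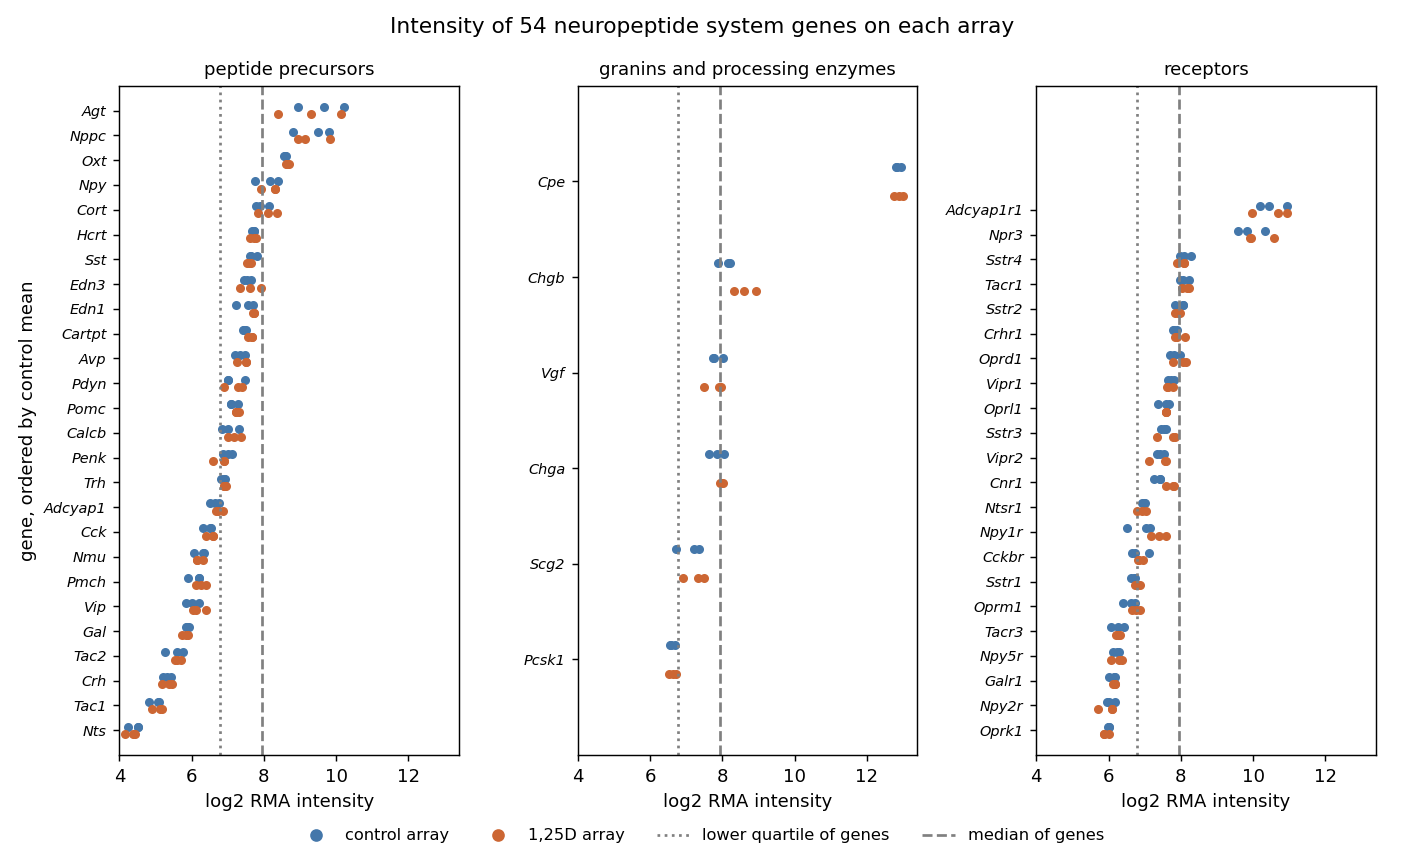
Log2 RMA intensity (horizontal axis) of each of the 54 members on every array, 1 row per gene ordered by control mean, in panels for precursors, granins and enzymes, and receptors. Blue points are control arrays and orange points 1,25D arrays, and the grey lines mark the lower quartile (6.78) and median (7.95) of all genes. Cpe stands far to the right near 12.9, and 18 members lie left of the dotted line.

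No member passed the test of 1,25D against control: 0 of 54 were called (limma over all genes, adjusted p under 0.05), where 0.0251% of all genes were called. With equal replicate numbers treated as pairs (a block in the fit) the count was again 0 of 54, against 0.0903% of all genes. The lowest adjusted p of any member was 1.00 without the block and 0.284 with it. At an unadjusted p under 0.05 there were 3 of 54 members without the block (Cnr1, Chgb and Npy1r), against 1.48% of all genes. With the block there were 6 of 54 (also Agt, Npr3 and Penk), against 5.78%. The differences of 47 members were under 0.2 in size, and the 95% interval of 46 lay within a 1.5-fold change in either direction. The 8 others, whose intervals reached beyond 1.5-fold, were Chgb, Scg2, Agt, Nppc, Adcyap1r1, Npr3, Cnr1 and Npy1r.

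Small differences leaned upward in the members, as they did less in all genes. The lean was not particular to the members. Of 32 other precursors described below, 26 had a higher treated mean and 6 a lower one. Of all 106 further peptide system genes, 70 were higher and 36 lower, with a median log2 difference of 0.04. The treated mean was higher for 39 of 54 members (72.2%), against 53.0% of all genes, and the median log2 difference was 0.05, against 0.01. By role it was 0.06 for the 26 precursors, 0.08 for the 6 granins and enzymes and 0.04 for the 22 receptors. The median over members was 0.04, 0.14 and -0.03 for replicate numbers 1, 2 and 3, so the lean was not in every pair, and the median turned to -0.0021 without control replicate 2 and to -0.0086 in the blocked fit without replicate 2. In each of the 3 pairs 17 of 54 members were higher, against 14.8% of all genes, and 3 of 54 were lower (Agt, Penk and Nts), against 11.0%.

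**Figure D2:**
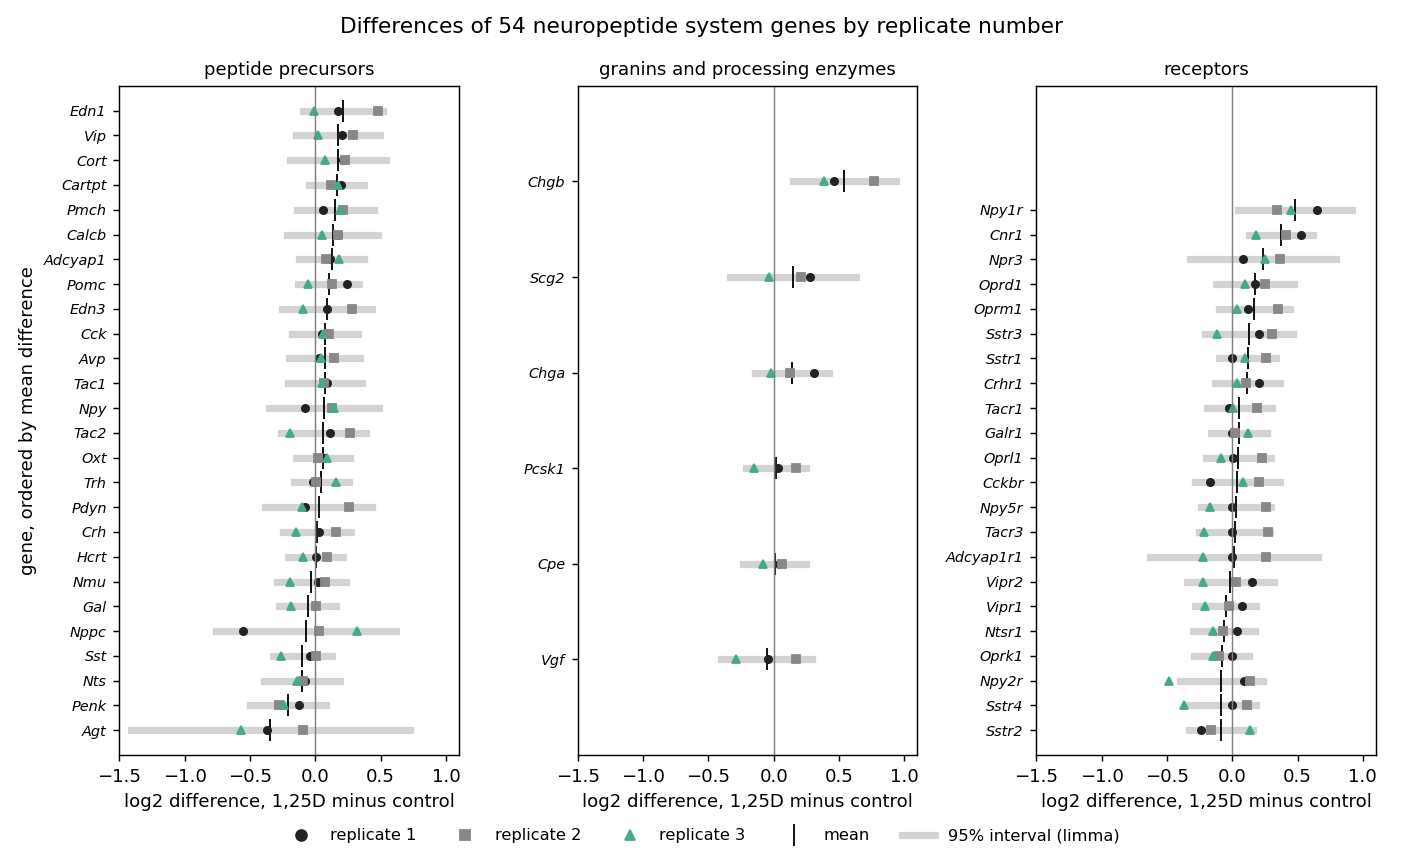
Log2 difference, 1,25D minus control (horizontal axis), of the 54 members, 1 row per gene ordered by the mean, in panels by role. Points are the 3 differences by replicate number, the black tick is their mean and the grey bar the 95% interval from limma without the block. The bars of Chgb, Npy1r and Cnr1 lie right of 0, and that of Agt is the widest.

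Of the 6 granins and processing enzymes 1, chromogranin B, had groups that did not overlap with the treated arrays higher, against 2.63% of all genes. With the treated arrays lower there were 0, against 1.52% of all genes. Chgb, a granin of the dense-core vesicle, read 7.87, 8.17 and 8.22 on control arrays 1, 2 and 3 and 8.33, 8.94 and 8.61 on treated arrays. Every treated array was thus brighter than every control array. Its mean went from 8.09 ± 0.19 to 8.63 ± 0.30 (SD, n = 3 each), a 1.45-fold higher level with a 95% interval of 0.14 to 0.93 on the log2 scale. The difference was 0.46, 0.77 and 0.39 in the 3 pairs, and it did not pass the test over all genes (limma, adjusted p = 1.00 without the block and 0.284 with it). Its relatives did not share this separation. Chga, the other chromogranin, read 7.63, 7.84 and 8.04 in controls and 7.94, 7.97 and 8.02 in treated cultures, a difference of 0.14 ± 0.12 (SE). Scg2, the precursor of secretoneurin, read 7.23, 6.71 and 7.36 against 7.50, 6.92 and 7.33, with replicate 2 lowest in both groups. Vgf, a granin-like protein known to follow neurotrophin signalling, read 8.01, 7.74 and 7.78 against 7.97, 7.91 and 7.49. All 3 overlapped between the groups, and whether Chgb differed from them was not tested.

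The enzymes that turn precursors into active peptides overlapped between the groups. Cpe, carboxypeptidase E, which trims basic residues from the cut peptides, was the brightest member at 12.96, 12.82 and 12.83 in controls and 13.00, 12.88 and 12.75 in treated cultures. Its difference was 0.01 ± 0.10 (SE), with a 95% interval of -0.24 to 0.25. Pcsk1, a prohormone convertase, was dim at 6.59, 6.54 and 6.69 against 6.62, 6.71 and 6.53, a difference of 0.02 ± 0.10 (SE).

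Of the 26 peptide precursors 1, Cartpt, had groups that did not overlap with the treated arrays higher, against 2.63% of all genes, and 0 had them lower, against 1.52%. A share of 1 in 26 is near that background. Cartpt encodes the precursor of CART peptides and read 7.46, 7.43 and 7.50 in controls and 7.66, 7.55 and 7.67 in treated cultures. The separation was small, 1.12-fold, with differences of 0.20, 0.12 and 0.18 in the pairs and an adjusted p of 1.00 (limma). Penk, the precursor of the enkephalins, leaned the other way, at 7.01, 6.86 and 7.13 against 6.89, 6.59 and 6.89. Its difference was -0.21 ± 0.12 (SE), and the groups overlapped. Edn1, endothelin-1, read 7.57, 7.24 and 7.71 against 7.74, 7.72 and 7.70, so that the treated arrays were close together and control array 2 lay lowest. Vip, vasoactive intestinal peptide, read 6.20, 5.83 and 6.02 against 6.41, 6.12 and 6.05, with a difference of 0.17 ± 0.14 (SE).

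Npy, Sst and Cort, peptides of inhibitory interneurons, did not separate by treatment, and neither did the precursors Oxt and Hcrt. Npy, neuropeptide Y, read 8.38, 8.18 and 7.77 in controls and 8.31, 8.30 and 7.91 in treated cultures, with replicate 3 lowest in both groups. Its difference was 0.07 ± 0.18 (SE), with a 95% interval of -0.36 to 0.49. Sst, somatostatin, had a control mean of 7.69 and a difference of -0.10 ± 0.10 (SE). Cort, cortistatin, its close relative, read 8.15, 7.90 and 7.77 against 8.36, 8.12 and 7.85, again with replicate 3 lowest in both groups. Oxt, the precursor of oxytocin, read 8.63, 8.58 and 8.56 against 8.69, 8.60 and 8.65. Hcrt, that of the orexins, read 7.73, 7.68 and 7.72 against 7.74, 7.77 and 7.62. Both had overlapping groups, and their control SDs of 0.04 and 0.03 lay below the median of 0.15 over all genes. The precursors not described by array had differences from -0.10 (Nts) to 0.15 (Pmch).

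Of the 22 receptors 2, Cnr1 and Npy1r, had treated arrays that were all brighter than the controls, against 2.63% of all genes. The reverse held for 0 receptors, against 1.52% of all genes. Cnr1, the cannabinoid receptor CB1, which dampens transmitter release at many terminals, read 7.27, 7.42 and 7.41 in controls and 7.80, 7.82 and 7.59 in treated cultures. Its mean went from 7.37 ± 0.09 to 7.74 ± 0.13 (SD, n = 3 each), 1.29-fold higher with a 95% interval of 0.13 to 0.62 on the log2 scale. The 3 differences were 0.53, 0.41 and 0.18, and the adjusted p was 1.00 without the block and 0.581 with it (limma). Npy1r, the Y1 receptor for neuropeptide Y, read 6.51, 7.05 and 7.15 against 7.16, 7.39 and 7.60. Control array 1 was the lowest, and the lowest treated array was only just above the highest control. Its mean was 1.40-fold higher, the 3 differences were 0.65, 0.34 and 0.45, and the adjusted p was 1.00 without the block and 0.307 with it (limma). The groups of its ligand gene Npy overlapped (above).

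With Chgb and Cartpt these made 4 of 54 members whose groups did not overlap with the treated arrays higher, against 2.63% of all genes, and 0 with them lower, against 1.52%. After each array was centred on its median, 2 of the 4 (Chgb and Cnr1) kept separate groups, 3.70% of members against 4.32% of all genes in either direction. The summed intensity of all 8 general neuron markers, none of which passed the test, was 3001, 4144 and 4266 on control arrays 1, 2 and 3 and 2376, 3515 and 4075 on the treated arrays. This sum was lower in each of the 3 pairs, and 6 of the 8 markers had a lower treated mean. The mean log2 intensity of these markers fell in pairs 1 and 2 but not in pair 3. There it was 8.467 in the control and 8.482 in the treated culture, with 5 of 8 markers higher. The 4 genes were higher in each pair. The 8 GABA neuron markers summed to 1799, 2156 and 2103 on control arrays 1, 2 and 3 and to 1585, 2293 and 2356 on the treated arrays. Their sum was thus lower in pair 1 and higher in pairs 2 and 3, and 6 of these 8 had a higher treated mean. Their part in the values of these 4 genes was not tested. In such bulk samples fewer cells of a type and less RNA per cell cannot be told apart.

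**Figure D3:**
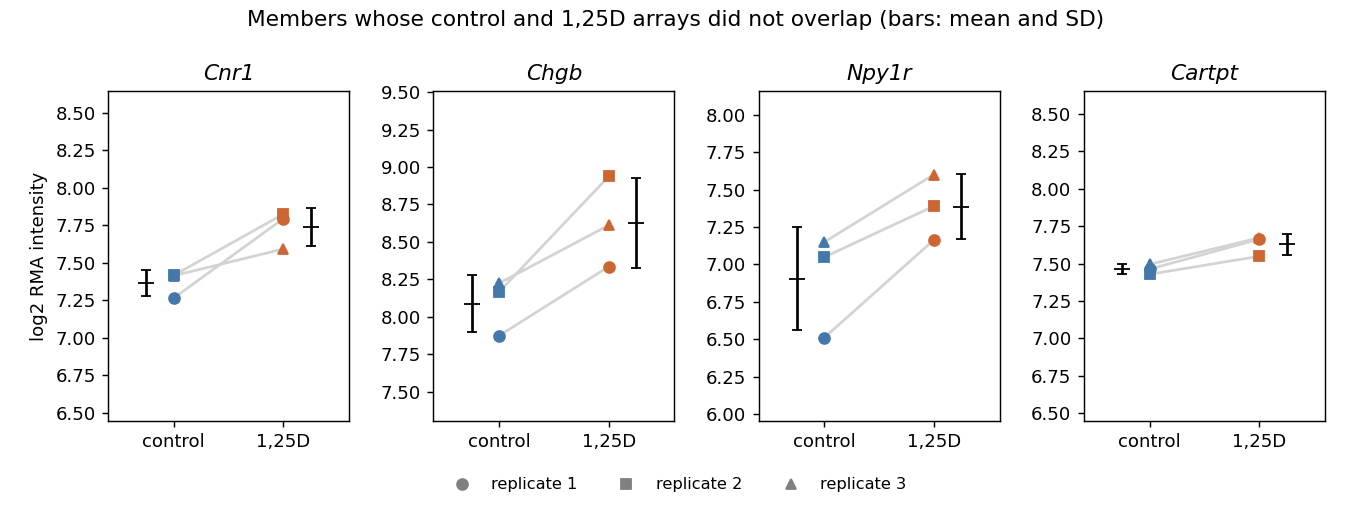
Log2 RMA intensity (vertical axis, the same span in each panel) of Cnr1, Chgb, Npy1r and Cartpt in control and 1,25D arrays. Marker shapes give the replicate number, grey lines join equal numbers, and black bars are the group mean and SD (n = 3). Each line slopes upward, most for Chgb replicate 2 (0.77) and least for Cartpt replicate 2 (0.12).

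The other receptors had overlapping groups, and none passed the test. The Y receptors Npy5r and Npy2r had differences of 0.03 and -0.09. Among somatostatin receptors Sstr4 read 8.10, 7.97 and 8.28 against 8.10, 8.09 and 7.90, and Sstr2 read 8.07, 8.07 and 7.84 against 7.84, 7.91 and 7.97, both overlapping. Sstr1, dimmer at 6.73, 6.61 and 6.69 against 6.73, 6.86 and 6.79, had a difference of 0.12 ± 0.09 (SE), and Sstr3 one of 0.13. The opioid receptors leaned in no single direction. Oprd1, the delta receptor, which binds enkephalins, read 7.96, 7.82 and 7.69 against 8.14, 8.07 and 7.78, and Oprm1, the mu receptor, 6.74, 6.41 and 6.62 against 6.86, 6.76 and 6.66. Their differences were both 0.17, while Oprl1 and Oprk1 had 0.05 and -0.08. Tacr1, the receptor for substance P, read 8.07, 7.97 and 8.23 against 8.04, 8.16 and 8.23, a difference of 0.06 ± 0.11 (SE). Crhr1, a receptor for corticotropin-releasing hormone, read 7.90, 7.79 and 7.80 against 8.11, 7.89 and 7.84, a difference of 0.11 ± 0.11 (SE).

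The brightest peptides and receptors varied more between replicate numbers than between treatments. Agt, angiotensinogen, the precursor of the angiotensins, read 9.67, 10.22 and 8.95 in controls and 9.30, 10.13 and 8.38 in treated cultures. Replicate 2 was highest and replicate 3 lowest in both groups. Its SD was 0.64 among controls and 0.87 among treated cultures, above the difference of -0.34 ± 0.46 (SE without the block). The pair differences of -0.37, -0.10 and -0.57 were all below 0. With the block the SE was 0.11, the unadjusted p 0.0156 and the adjusted p 0.705 (limma). Adcyap1r1, the PAC1 receptor for the peptide PACAP, read 10.93, 10.44 and 10.18 against 10.93, 10.70 and 9.96, highest in replicate 1 and lowest in replicate 3 in both groups. Npr3, the natriuretic peptide clearance receptor, took another order, at 9.82, 9.58 and 10.34 against 9.90, 9.95 and 10.58, with replicate 3 highest. Its pair differences of 0.08, 0.37 and 0.25 were all above 0. The mean difference was 0.23, with an SE of 0.24 without the block and 0.09 with it. With the block the unadjusted p was 0.0329 and the adjusted p 0.832 (limma). Nppc, the precursor of C-type natriuretic peptide, which Npr3 binds, read 9.49, 9.79 and 8.82 against 8.93, 9.82 and 9.14, and its pair differences of -0.56, 0.03 and 0.32 had no common sign.

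**Figure D4:**
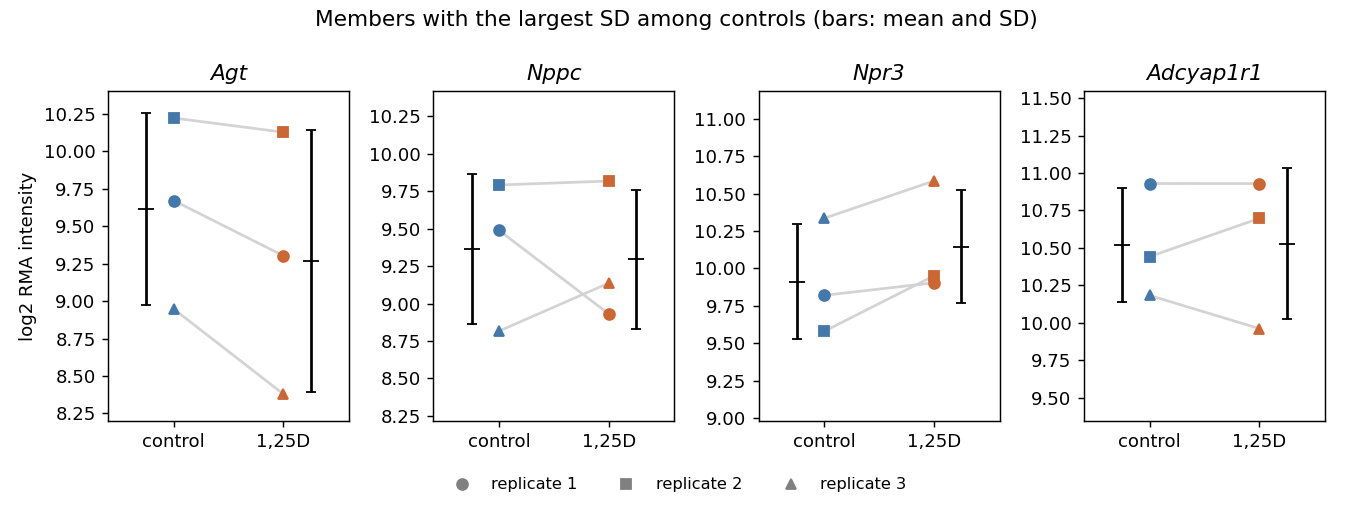
Log2 RMA intensity (vertical axis, the same span in each panel) of the 4 members with the largest SD among controls, Agt, Nppc, Npr3 and Adcyap1r1, drawn with shapes for replicate numbers and bars for mean and SD (n = 3). Replicate 3 is lowest in both groups for Agt and Adcyap1r1 and highest for Npr3.

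Marker genes of the cells known to make angiotensinogen moved between the same arrays. The mean log2 intensity of the 8 astrocyte markers was 11.50, 11.47 and 11.07 on control arrays 1, 2 and 3 and 11.20, 11.49 and 10.99 on the treated arrays, lowest in replicate 3 of both groups. By summed intensity the lowest treated array was instead replicate 1, at 28752 against 28969 for replicate 3. All 8 had a lower treated mean, with a median difference of -0.08, and 0 of 8 passed the test. Their summed intensity ran from 29341 to 38285 in controls and from 28752 to 38417 in treated cultures, and none lay below the lower quartile of genes. The 8 markers of choroid plexus and ependymal cells summed to between 4070 and 6879 in controls and between 5317 and 5374 in treated cultures. The part of either cell type in the values of Agt, Adcyap1r1, Nppc or Npr3 was not tested.

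The wider peptide system was read from 113 further genes, 106 of which were measured: other precursors, other granule and processing proteins, peptide-degrading enzymes and other receptors. Of these 1 rose and 0 fell (limma, adjusted p under 0.05, with and without the block). It was Grpr, the receptor for gastrin-releasing peptide, which read 6.76, 6.25 and 6.49 in controls and 10.02, 9.41 and 9.78 in treated cultures (limma, adjusted p = 0.00414). Its mean was 9.42-fold higher on the RMA scale, from a control mean of 6.50 that lay below the lower quartile of genes, where differences are compressed. The gene of its ligand, Grp, added after its values were seen, read 6.66, 6.54 and 6.53 against 6.76, 6.85 and 6.69, a difference of 0.19 ± 0.10 (SE) that did not pass. By list, 0 of 32 other precursors, 0 of 18 granule and processing genes and 0 of 9 degrading enzymes passed, with median differences of 0.07, 0.02 and -0.01, and 1 of 47 other receptors, with a median of 0.03. The next smallest p-values in these lists were those of Ptprn2 and Ntsr2. Ptprn2, a phosphatase-like protein of the dense-core vesicle membrane, read 9.03, 8.87 and 8.73 against 9.33, 9.31 and 9.11, 1.30-fold higher without overlap (limma, adjusted p = 1.00, and 0.375 with the block). Ntsr2, a neurotensin receptor, read 9.49, 9.72 and 9.37 against 8.65, 9.42 and 9.18, a difference of -0.45 ± 0.20 (SE) with overlapping groups.

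For 7 members (Gal, Galr1, Npy5r, Oprk1, Sstr1, Sstr4 and Tacr3) both replicate 1 arrays held exactly the same value, which fixes that difference at 0. This was so for 1094 of all genes, against 2 genes in replicate 2 and 5 in replicate 3. With these genes left out of the fit, 0 of the 47 remaining members were called.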

How the data were processed

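Total RNA of the 6 cultures was labelled and hybridised to Affymetrix arrays. The table deposited by the authors holds 1 intensity per transcript cluster and array. RMA and Expression Console are the tools that the submitters' processing notes name, with no version. The file itself shows a linear scale (8.05 to 22019), so log2 was taken. For arrays the number of replicates limits the precision.

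Of 35556 rows, 21789 carried 1 gene symbol in GEO's platform annotation (1621 carried several and 12146 none), giving 19938 genes. Where rows shared a symbol, the brightest on average was taken. 1,25D minus control was fitted with limma 3.58.1 in R 4.3.3 (lmFit, eBayes) over all genes, with Benjamini-Hochberg adjustment and a threshold of 0.05. The fit was tested on simulated data. With 3 arrays against 3 an exact permutation test of 1 gene cannot go below 0.1.

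Deviations from the group means correlated across genes at 0.512, 0.645 and 0.457 for equal replicate numbers, which were therefore treated as pairs in a blocked fit, although the labels do not say what the numbers share.

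The members, lists and rules were chosen with earlier results of these data known. Array values are given for the 6 brightest members of each role, all granins and enzymes, the 10 with the smallest p, those with all 3 pair differences of 1 sign and at least 0.3 in size, and the 3 most variable controls. Further genes (Sst, other receptors) were added after their values were seen. Peptide precursor cleavage sites were planned but not analysed here.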

Additional observations from a re-analysis of the deposited data

How the results depend on the processing

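No member was called in any of the 19 alternatives. The lowest adjusted p of any member was 0.105 (limma), that of Chgb in the blocked fit without replicate 3. Over the alternatives the log2 difference lay between 0.38 and 0.69 for Chgb, 0.29 and 0.47 for Cnr1, 0.29 and 0.60 for Npy1r, and 0.14 and 0.21 for Cartpt. The count over all genes, 5 as reported, was 18 with the replicate block, 3 after quantile normalisation and 0 over all rows of the table. With 1 array left out it ran from 0 to 2, and in the blocked fit it was 40 without replicate 1, 3 without replicate 2 and 45 without replicate 3. Non-overlapping members, 4 as reported (7.41%, against 4.15% of all genes in either direction), numbered 5 after quantile normalisation (9.26% against 4.89%) and 2 after median centring (3.70% against 4.32%). With 1 array left out they numbered 6 to 11 (11.1% to 20.4%), against 8.92% to 15.7% of all genes. The block changed no other call.

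Of the 27 members given by array, 11 changed sign in some setting, all of them uncalled. After quantile normalisation Pcsk1 was at -0.0225 and Hcrt at -0.0159, and after median centring Cpe at -0.0014 and Hcrt at -0.0059. With 1 array left out the difference ran from -0.0538 to 0.0698 for Cpe, -0.1421 to 0.0965 for Vgf, -0.0462 to 0.3137 for Scg2, -0.0288 to 0.0614 for Pcsk1, -0.7721 to 0.1019 for Agt, -0.3446 to 0.1428 for Nppc, -0.1053 to 0.2019 for Npy, -0.0277 to 0.0462 for Hcrt, -0.1889 to 0.2951 for Adcyap1r1 and -0.0035 to 0.1239 for Tacr1. Of the 17 that kept their sign with any array left out, 13 moved by over 1.5 times. Among them were Npy1r (0.2851 to 0.6041, and 0.4811 as reported), Vip (0.0646 to 0.2639), Crhr1 (0.0332 to 0.1691), Cort (0.0462 to 0.3042), Chga (0.0370 to 0.2406), Edn1 (0.0814 to 0.3176) and Npr3 (0.0150 to 0.4454). In the blocked fit, without replicate 1 it was -0.0095 for Cpe, 0.1730 for Nppc and -0.0005 for Hcrt. Without replicate 2 it was -0.0211 for Cpe, -0.0616 for Pcsk1, -0.0422 for Hcrt, -0.1107 for Adcyap1r1 and -0.0124 for Tacr1. Without replicate 3 it was 0.0639 for Vgf and 0.0563 for Sstr4. For the changes of sign near 0 the cause was not tested. RMA values give no detection call, so differences of dim members are limited by signal over background.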
